A study of Mus musculus with 2 samples.

Results

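Hox genes encode transcription factors with a homeodomain and lie in 4 clusters, Hoxa to Hoxd, each on a chromosome of its own. Every mouse protein-coding gene whose symbol is Hoxa, Hoxb, Hoxc or Hoxd followed by a digit was taken, which gave 39 genes of 21887. There were 11 Hoxa, 10 Hoxb, 9 Hoxc and 9 Hoxd genes. A Hox peak was any ATAC-seq peak touching the span of such a gene with 10 kb added on each side, and a peak near several Hox genes was counted once. This gave 92 of the 85137 peaks used from the control library and 67 of the 64910 used from the treatment library. Within this set the genes were taken by name alone.

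The series profiled chromatin accessibility in mouse CD8+ T cells by ATAC-seq, which reads out open DNA by where a transposase can cut and tag it, and its title spells the cells Peml-1. There was 1 library titled control and 1 titled treatment, each with its own peak list in the mm10 build. The labels name neither the agent given nor the strain or age of the mice, the genotype field speaks of accessibility and not of a genotype, and the treatment field reads "Treatment" for the control title and "Combined treatment" for the treatment title. Control and treatment below therefore mean the libraries carrying these titles, and with 1 library in each group no difference could be set against the spread between replicates.

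Along each cluster the genes are numbered in paralog groups up to 13, with low numbers active toward the head of the embryo and high numbers toward the tail. Polycomb complexes keep Hox clusters silent, Trithorax proteins such as the methyltransferase encoded by Kmt2a keep them active, and Meis, Pbx and Pknox proteins bind DNA together with Hox proteins. In blood formation several Hoxa and Hoxb genes are active in stem and progenitor cells and their activity declines as lymphocytes mature.

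Both libraries carried the accessibility of CD8 T cells at marker genes. The 5 matched CD8 T cell markers (Cd8a, Cd8b1, Cd3e, Cd3d and Cd3g) had a peak at the start in both libraries in 5 of 5 cases, with 32 control and 33 treatment locus peaks. The 3 B cell markers had a start peak in 0 of 3 cases and held 9 control and 10 treatment locus peaks. The 4 myeloid markers held 20 and 18 peaks, with a start peak in both libraries at 2 and in control only at 2, Lyz2 and Csf1r. The 2 NK cell markers held 6 control and 2 treatment peaks, and Ncr1 held 0 in each. The 3 stromal markers held 9 and 6 peaks, with Col1a2 at 0 in each, the 2 erythroid markers 8 and 6, and the 2 CD4 T cell markers 10 and 10. The part of other cells in the Hox results was not tested. A weaker signal from fewer cells with an open site and from less opening in each cell cannot be told apart in a bulk library.

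To show what lies at Hox starts under and outside the peaks, 4 RefSeq promoter windows of the GRCm38.p6 assembly, the same coordinates as mm10, are printed 5′ to 3′ on the strand of the gene. Each runs from 250 bases before the start to 50 after it, and capitals mark the bases under a control peak. They were chosen after the values were seen, as a window with a peak in control alone (Hoxd10, which had a peak within 1 kb of its start in both libraries), one whose peak began near the start in both libraries (Hoxb4), one covered whole in both (Hoxa13) and one covered in neither (Hoxd4).
Hoxd10, chr2:74691641-74691940 (+): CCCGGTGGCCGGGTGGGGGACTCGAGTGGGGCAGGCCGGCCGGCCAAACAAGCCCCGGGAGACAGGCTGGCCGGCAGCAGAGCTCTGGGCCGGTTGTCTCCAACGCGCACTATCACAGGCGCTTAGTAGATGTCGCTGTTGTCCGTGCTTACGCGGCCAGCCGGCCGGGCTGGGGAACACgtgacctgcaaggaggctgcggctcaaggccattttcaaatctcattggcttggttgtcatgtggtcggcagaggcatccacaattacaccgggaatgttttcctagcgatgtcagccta
Hoxb4, chr11:96318017-96318316 (+): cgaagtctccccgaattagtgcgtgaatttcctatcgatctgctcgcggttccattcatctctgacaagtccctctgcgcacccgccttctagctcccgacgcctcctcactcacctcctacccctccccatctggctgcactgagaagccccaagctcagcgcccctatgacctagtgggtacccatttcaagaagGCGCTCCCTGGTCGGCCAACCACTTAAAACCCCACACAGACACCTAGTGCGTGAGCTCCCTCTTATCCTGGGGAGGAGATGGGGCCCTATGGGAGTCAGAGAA
Hoxa13, chr6:52260831-52261130 (-): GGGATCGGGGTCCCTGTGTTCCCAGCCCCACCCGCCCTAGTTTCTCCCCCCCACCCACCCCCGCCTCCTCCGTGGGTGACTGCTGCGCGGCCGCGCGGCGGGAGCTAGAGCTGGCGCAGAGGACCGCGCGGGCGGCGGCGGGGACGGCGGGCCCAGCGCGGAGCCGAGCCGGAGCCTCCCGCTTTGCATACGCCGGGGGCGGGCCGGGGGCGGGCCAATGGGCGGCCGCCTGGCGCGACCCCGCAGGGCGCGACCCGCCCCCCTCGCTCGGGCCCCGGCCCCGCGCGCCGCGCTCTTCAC
Hoxd4, chr2:74721728-74722027 (+): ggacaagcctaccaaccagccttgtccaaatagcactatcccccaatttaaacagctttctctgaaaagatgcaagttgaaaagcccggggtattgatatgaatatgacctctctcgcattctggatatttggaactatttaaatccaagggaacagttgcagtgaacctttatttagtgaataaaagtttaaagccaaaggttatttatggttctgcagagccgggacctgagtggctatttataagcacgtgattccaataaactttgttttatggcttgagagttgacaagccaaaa
The Hoxd10 window had 180 bases under a control peak and 0 under a treatment peak. The Hoxb4 window had 103 and 84 such bases, and the Hoxa13 window 300 and 300. CpG dinucleotides numbered 22 in the Hoxd10 window, 14 in Hoxb4, 45 in Hoxa13 and 4 in Hoxd4.

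The table held 24 windows of 22 Hox genes, and 11 of them (45.8%) touched a control peak and 9 (37.5%) a treatment peak. Over all 21263 protein-coding windows the shares were 60.0% and 56.5%. The windows touched in control alone were those of Hoxd10 and of 1 of the Hoxa10 starts, which had 31 bases under its control peak. Hox windows with a control peak had a median of 20 CpG and those without one a median of 10, beside 22 and 3 over all windows. Hox windows without a peak thus had more CpG in the median than other windows without one. Hoxa5 (29 CpG) and Hoxa6 (26 CpG) had no peak in the window in either library. Read on both strands, the letters CCAAT stood in 15 of the 24 Hox windows (62.5%) and in 38.2% of all windows. TATAAA stood in 4 (16.7%, against 12.6%), the Hoxd4 window among them, and the homeodomain core TAATTA in 2 (8.33%, against 4.53%). These motifs do not contain one another, and a match is a description of letters and not of a bound site.

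The Hox clusters also hold the microRNA families miR-10 and miR-196, which repress messenger RNAs, Hox transcripts among them, through the seed at bases 2 to 8, in capitals here. Both pairs are shown because members of a family share the seed while their hairpins lie in different clusters.
mmu-miR-196b-5p, chr6:52230129-52230150 (-): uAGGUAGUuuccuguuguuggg
mmu-miR-196a-5p, chr15:102973365-102973386 (+) and chr11:96265187-96265208 (+): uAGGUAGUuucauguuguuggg
mmu-miR-10a-5p, chr11:96317186-96317208 (+): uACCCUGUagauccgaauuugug
mmu-miR-10b-5p, chr2:74726074-74726096 (+): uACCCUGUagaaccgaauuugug
The hairpin of miR-196b lay under a peak in both libraries, with a summit coverage of 97 reads in control and 69 in treatment. Summit coverage is the number of reads over a peak's highest point, recovered from the deposited values. The other hairpins lay under no peak. The nearest peak was 940 bp away in control and 959 bp in treatment for Mir10a, 1069 and 9744 bp for Mir10b, 685 and 2914 bp for Mir196a-2, and 3146 and 3336 bp for Mir196a-1. The mature sequences of Mir615, in Hoxc, lay 338 bp or more from the nearest control peak. Near Mir10b and Mir196a-2, then, treatment lacked the closest control peak. Those peaks were weak, with 51 and 49 reads and a fold enrichment over local background of 3.43 and 1.98. Over all protein-coding loci, 55.1% of control peaks with a fold of 3 to 5 overlapped no treatment peak, and 67.1% of those below 3.

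The treatment library held fewer Hox peaks than the control library at Hoxc and Hoxd, slightly fewer at Hoxb and as many at Hoxa. Hoxa had 18 control and 18 treatment peaks and Hoxb 24 and 21, ratios of 1 and 0.875. Hoxc had 26 and 13 and Hoxd 24 and 15, ratios of 0.5 and 0.625. The 4 clusters together had a ratio of 0.728, against 0.776 over all protein-coding loci.

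The map of peaks along the clusters shows where these numbers differ. Peaks found in control alone crowd the Hoxc13 and Hoxc12 end of Hoxc and the stretch from Hoxd12 to Hoxd10.

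**Figure D1:**
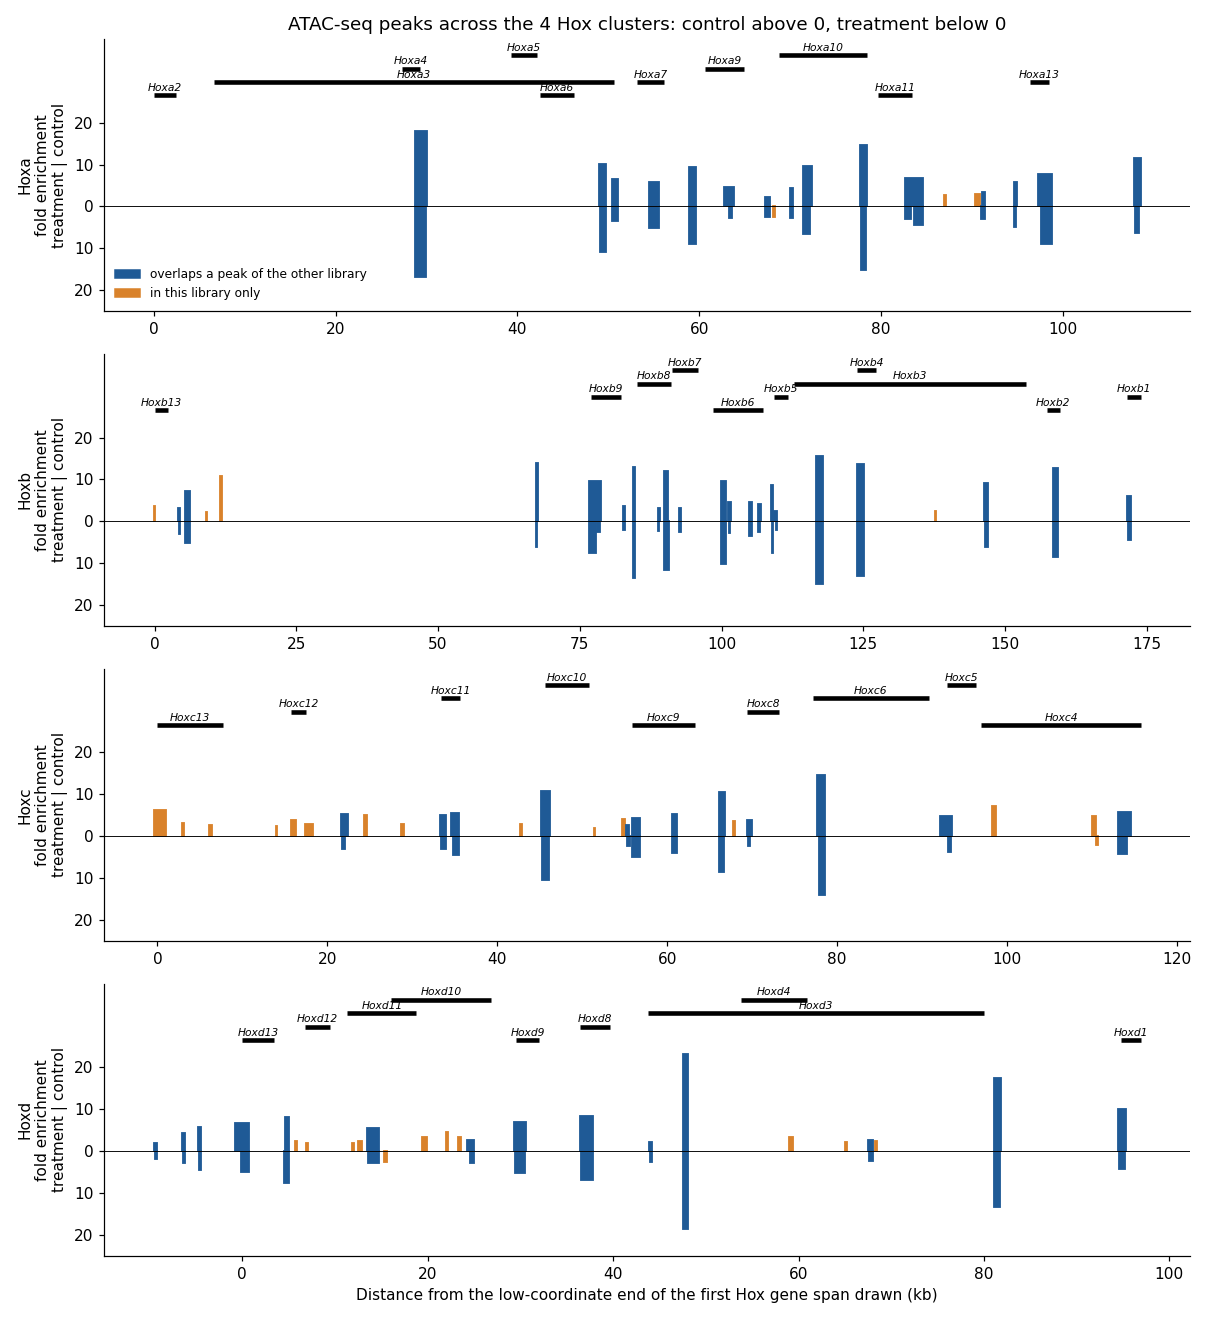
ATAC-seq peaks across the 4 Hox clusters, with distance along the chromosome in kb on the x axis and the authors' fold enrichment on the y axis, control upward and treatment downward. Bars are peaks, blue where the other library has an overlapping peak and orange where it has none, and black lines are Hox gene spans. Of the orange bars, 14 control peaks lie in Hoxc and 10 in Hoxd, against 2 in Hoxa and 4 in Hoxb.

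The spans and densities of the clusters were as follows. The Hoxa loci, 125.514 kb on chromosome 6, held 14.3 control and 14.3 treatment peaks per 100 kb. Hoxb ran over chr11:96194316-96368254, with Hoxb13 set apart from the other members, and its loci, 139.22 kb with flanks and without the gap beside Hoxb13, held 17.2 and 15.1 peaks per 100 kb. Hoxc ran over chr15:102921131-103036856, and its loci of 135.726 kb held 19.2 and 9.58. Hoxd ran over chr2:74668225-74765142, and its loci of 116.918 kb held 20.5 and 12.8. In control the Hoxc and Hoxd clusters were thus the densest, and in treatment Hoxc was the sparsest. Of the control Hox peaks 61 overlapped a Hox gene span and 31 lay beside one, and of the treatment peaks 46 and 21.

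A peak was called control-only when no treatment peak overlapped it by at least 1 bp. At Hoxa 2 of 18 control peaks were control-only (11.1%, 95% Wilson interval 3.10 to 32.8%), and at Hoxb 4 of 24 (16.7%, 6.68 to 35.9%). At Hoxc the share was 14 of 26 (53.8%, 35.5 to 71.2%) and at Hoxd 10 of 24 (41.7%, 24.5 to 61.2%). Over the 4 clusters it was 30 of 92 (32.6%, 23.9 to 42.7%), against a background of 27.5% (17881 of 64958) over all protein-coding loci. The Hox share as a whole was thus near the background, and the Hoxc interval lay above it while those of Hoxa, Hoxb and Hoxd held it. The intervals cover counting error only, and those of Hoxa and Hoxb, Hoxb and Hoxd, and Hoxd and Hoxc overlapped, so neighbours in the order of the shares were not separated by counting error.

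Pooled after these values were seen, Hoxa and Hoxb had 6 control-only peaks of 42 (14.3%, 6.72 to 27.8%) and Hoxc and Hoxd 24 of 50 (48.0%, 34.8 to 61.5%). These intervals do not overlap, but no test stands behind the pooling.

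Peaks found in treatment alone were few. They numbered 3 of 67 (4.48%, 1.53 to 12.4%), against a background of 6.28% over all protein-coding loci. The Hoxa peak at chr6:52230513-52230800, between Hoxa9 and Hoxa10, had a fold enrichment of 2.55 and a coverage of 66 reads. The Hoxd peak at chr2:74683542-74683831, in Hoxd11, had a fold of 2.55 and 40 reads. The Hoxc peak at chr15:103031605-103031867, in Hoxc4, had a fold of 1.99 and 31 reads, the lowest coverage of any peak used from that library. Hoxb had 0 treatment-only peaks.

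Control Hox peaks had a lower median strength than control peaks over all protein-coding loci, above all in Hoxc and Hoxd. The fold enrichment of a peak over its local background is the authors' own value and is compared here within a list. In control the median fold was 6.60 at Hoxa, 6.66 at Hoxb, 4.58 at Hoxc and 3.46 at Hoxd, and 4.83 over the 4 clusters, against 8.20 over all protein-coding loci. Hoxc and Hoxd had both the lower medians and the larger control-only shares, though Hoxd had the lowest median and Hoxc the largest share. In treatment the medians were 4.96, 5.17, 4.08 and 4.30, and 4.54 over the 4 clusters, against 7.51 over all loci. No Hox peak ranked in the top 1% of its list by fold.

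Among Hox peaks, those missing from treatment were weaker in the median. Control-only Hox peaks had a median fold of 2.99 (range 1.98 to 10.8) and a median coverage of 58.5 reads (33 to 162). Control Hox peaks shared with treatment had a median fold of 6.24 and a median coverage of 185 reads. The same held over all loci, where control-only peaks had a median fold of 4.22 and shared ones 10.7.

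Limits of fold were then set, after the values were seen, to compare clusters at closer strength. Among control peaks below a fold of 5, Hoxa and Hoxb had 5 control-only of 17 (29.4%, 13.3 to 53.1%), and Hoxc and Hoxd 21 of 30 (70.0%, 52.1 to 83.3%), against 59.4% over all loci. At a fold of 5 or more the counts were 1 of 25 (4%) and 3 of 20 (15%, 5.24 to 36.0%), against 14.7% over all loci. Below a fold of 5 the interval of Hoxa and Hoxb lay under the share of all loci, and that of Hoxc and Hoxd held it. At a fold of 5 or more the share of Hoxc and Hoxd was close to that of all loci, but the mix of folds differed. Folds reached 10 at 6 of 20 Hoxc and Hoxd peaks, against 26572 of 46321 over all loci. From 5 to 10, 0 of 13 were control-only at Hoxa and Hoxb. At Hoxc and Hoxd 3 of 14 were (21.4%, 7.57 to 47.6%), against 28.4%. From 3 to 5 they were 2 of 12 (16.7%, 4.70 to 44.8%) and 9 of 13 (69.2%, 42.4 to 87.3%), against 55.1%. Below 3 they were 3 of 5 and 12 of 17, against 67.1%.

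**Figure D2:**
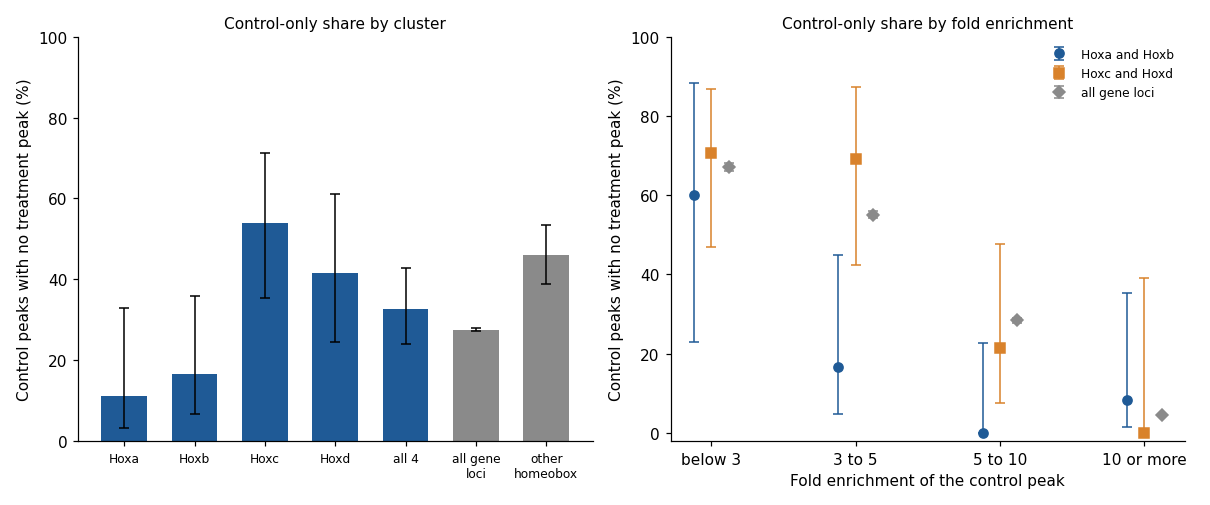
Share of control peaks with no overlapping treatment peak (percent, y axis), by cluster on the left and by fold enrichment of the control peak on the right. Bars and points are shares, error bars are 95% Wilson intervals for counting error only, and grey marks all protein-coding loci and, on the left, a list of other homeobox genes. Hoxc (53.8%) and Hoxd (41.7%) stand above all gene loci (27.5%), and in each set the share is lower at a fold of 5 or more than below it.

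The number of Hox peaks depended on how the lists were matched. When the control list alone was reduced to as many peaks as the treatment list, by highest −log10 p, Hox peaks numbered 51 in control and 67 in treatment, so the direction turned, while over all loci the ratio became 1.011. The control-only share over the clusters was then 3 of 51 (5.88%), against 15.1% over all loci, with 18.2% at Hoxc and 0% at Hoxd, so the contrast between the clusters was mostly gone. With −log10 q of at least 10 in both lists, the ratio over the clusters was 0.640 and the control-only share 38.7%, against 27.4% over all loci, and at Hoxc they were 0.381 and 61.9%.

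Posterior members held most of the control-only peaks, 23 of 30, and also most control Hox peaks, 54 of 92. Each peak was given to the nearest Hox gene, and genes were grouped as paralogs 1 to 3, 4 to 8 and 9 to 13. The share was 3 of 16 (18.8%, 6.59 to 43.0%) by genes 1 to 3, 4 of 22 (18.2%, 7.31 to 38.5%) by genes 4 to 8 and 23 of 54 (42.6%, 30.3 to 55.8%) by genes 9 to 13. The share over all loci was 27.5%, and the intervals overlapped. The control median fold fell in the same order of groups, from 9.54 through 5.36 to 4.30, and the groups were not compared at like fold. A peak inside a span went to that gene, so the one with its summit 258 bp from the end of Hoxa4 was counted by Hoxa3. Within clusters the share by genes 9 to 13 was 2 of 13 in Hoxa, 3 of 8 in Hoxb, 11 of 18 in Hoxc and 7 of 15 in Hoxd. By genes 4 to 8 it was 0 of 11 in Hoxb and 3 of 8 in Hoxc, with intervals of 0 to 25.9% and 13.7 to 69.4% that overlap, and it was 0 of 1 in Hoxa and 1 of 2 in Hoxd.

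The longest rows of neighbouring control-only peaks were at posterior genes. In Hoxc, 6 in a row covered chr15:102920692-102939399, a stretch of 18.708 kb over Hoxc13 and Hoxc12, with folds of 2.41 to 6.27 and coverages of 37 to 104 reads. In Hoxd, 4 in a row covered chr2:74673921-74681179, 7.259 kb from Hoxd12 into Hoxd11, with folds of 2.04 to 2.43 and 41 to 60 reads. The longest such row held 2 peaks in Hoxa and 2 in Hoxb.

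The control-only Hox peak of highest fold lay 9485 bp from Hoxb13, at chr11:96205863-96206162, with a fold of 10.8 and 162 reads. The next was in Hoxc4 at chr15:103019292-103019776, with a fold of 7.19 and 108 reads. The peak over the Hoxc13 end at chr15:102920692-102922144 was 1453 bp wide, with a fold of 6.27 and 104 reads. A peak 7148 bp from Hoxc12 at chr15:102945485-102945805 had a fold of 5.07 and 77 reads, and one in Hoxc4 at chr15:103031130-103031531 a fold of 4.73 and 99 reads. Of these 5 peaks 4 were in Hoxc, and the only one in Hoxb was by the posterior gene set apart from its cluster.

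Counted gene by gene, 20 of the 39 Hox genes (51.3%) had fewer locus peaks in treatment than in control, 4 (10.3%) had more and 15 had as many. Over all protein-coding genes the shares were 44.7% and 5.65%. Those genes include 4419 with no peak in either library, which could not have fewer, while each Hox gene had a peak. The Hox shares and these are thus not like for like. Neighbouring Hox loci overlap and share peaks, so these counts are not independent of one another.

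Anterior and central Hoxa genes had the same number in both libraries. Hoxa2 and Hoxa4 had 1 and 1, Hoxa5 and Hoxa6 3 and 3, and Hoxa3 and Hoxa7 5 and 5 in control and treatment. Hoxa9, which is active in blood progenitors, had 7 and 8 and Hoxa10, also a progenitor gene, 8 and 9. Both counts include the same weak treatment-only peak, with a fold of 2.55 and 66 reads. Hoxa10 also counted the control peak over the Hoxa11 start that met 2 treatment peaks. These 2 gains are thus not separate. Hoxa11 and Hoxa13, which pattern limbs and the urogenital tract, had fewer in treatment, 7 and 6 and 6 and 4.

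Hoxb genes were also mostly level. Hoxb1 and Hoxb2, hindbrain genes, had 1 and 1, and Hoxb4, known for expanding blood stem cells, 2 and 2. Hoxb5 had 7 and 7, Hoxb6 10 and 10 and Hoxb7 8 and 8. Hoxb8 had 7 and 8 and Hoxb9 6 and 7. Hoxb3 had 9 and 8, and Hoxb13, a prostate and tail gene, 5 and 2. The cluster's drop thus came from Hoxb13 and Hoxb3, while the split of 1 control peak at Hoxb9 added a treatment peak.

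Each of the 9 Hoxc genes had fewer in treatment. Hoxc13, a regulator of hair keratins, had 6 and 0, and Hoxc12 6 and 1. Hoxc11 had 6 and 3, Hoxc10 7 and 4 and Hoxc9 9 and 6. Hoxc8 had 5 and 4, Hoxc6 5 and 3, Hoxc5 2 and 1 and Hoxc4 4 and 3. The gap was widest at the posterior end.

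In Hoxd, 7 of 9 genes had fewer. Hoxd13, a digit gene, had 9 and 5, Hoxd12 8 and 4, Hoxd11 10 and 4 and Hoxd10 10 and 5. Hoxd9 had 6 and 3, Hoxd4 6 and 3 and Hoxd3 8 and 5. Hoxd8 (4 and 4) and Hoxd1 (1 and 1) had as many in both. The control peaks of Hoxd10, Hoxd11 and Hoxd12 overlap widely in membership, so they do not stand for separate sites.

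**Figure D3:**
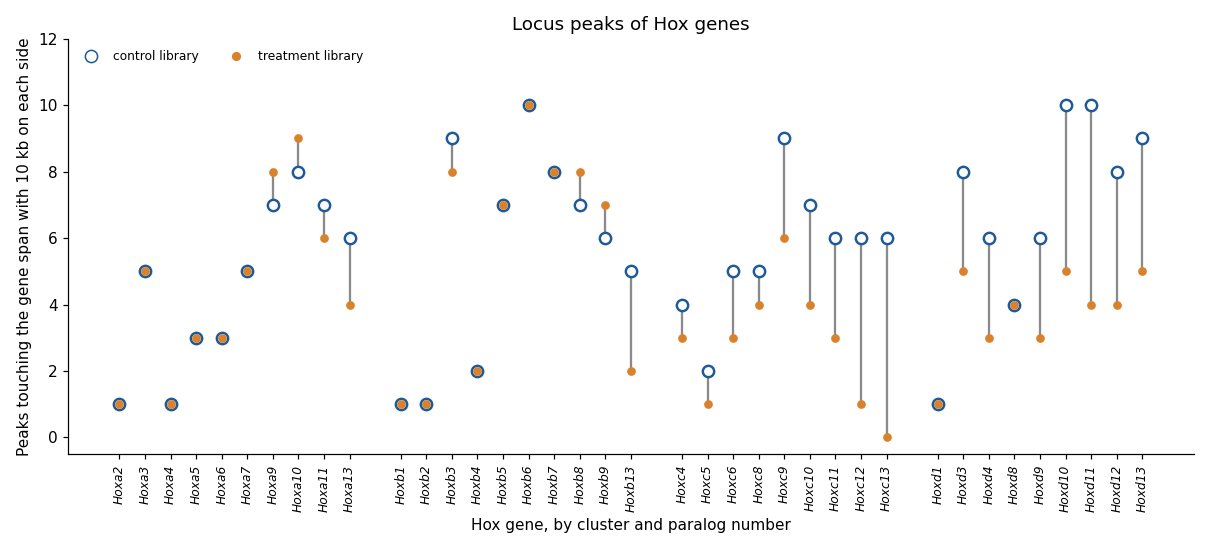
Number of peaks touching each Hox gene span with 10 kb on each side (y axis) for Hox genes (x axis, by cluster and paralog number), with open blue circles for control and filled orange points for treatment. Grey lines join the libraries, and the gap reaches 6 and 0 at Hoxc13 and 10 and 4 at Hoxd11.

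A peak within 1 kb of the gene start, or of either span end for the 17 genes whose start was not at hand, stood at 27 Hox genes (69.2%) in both libraries, against 61.5% of all protein-coding genes. It stood at 4 (10.3%) in control only, against 4.24%, and at 0 in treatment only, against 0.233%. Those in control only were Hoxb13, Hoxc12 and Hoxc13, by their span ends, and Hoxd12, all 4 of them posterior genes. Of the 22 Hox genes with a start at hand, Hoxd12 alone had its peak in control only. Starts were at hand for 17492 of the 21887 protein-coding genes, a larger part than among Hox genes. The shares are thus not like for like. Of the 8 genes with neither, 5 were in Hoxa. Within 2 kb of the start, 2 genes and not 4 had a peak in control only.

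The widest Hox peak of each cluster had a treatment partner, and so did its strongest one, although other wide or strong peaks, such as those by Hoxc13 and Hoxb13 above, had none. The Hox peak of highest fold in both lists lay in Hoxd3 at chr2:74715804-74716307, with a fold of 23.1 in control and 18.6 in treatment, and it was among the top 2.05% of the control list. Its summit coverage was 709 reads in control (95% Poisson interval 658 to 763) and 371 in treatment (334 to 411). The Poisson intervals cover counting error only and take reads as independent. The Hoxa peak of highest fold in treatment, though not in control, lay in the Hoxa3 span near the end of Hoxa4, at chr6:52191155-52192428 in control, with folds of 18.0 and 16.8 and coverages of 424 reads (385 to 466) and 493 (450 to 539). It was the one shared Hox peak with higher coverage in treatment, and the intervals overlapped. Over the 16 shared Hoxa peaks the ratio of treatment to control coverage ran from 0.349 to 1.16.

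The strongest Hoxb peak lay in Hoxb3 at chr11:96311011-96312181, with folds of 15.6 and 14.9 and coverages of 665 and 491 reads. The strongest Hoxc peak lay in Hoxc6 at chr15:102998755-102999749, with folds of 14.6 and 14.1 and 343 and 269 reads. Both had nearly the same fold in each library with fewer reads in treatment, and the local background that enters the fold was 41.75 and 32.04 reads at the Hoxb3 peak. At Hoxd1, a start peak of 153 reads (130 to 179) in control had 68 (53 to 86) in treatment.

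The median width of Hox peaks was 510.5 bp in control and 538 bp in treatment, against 540 and 558 bp over all protein-coding loci. By cluster the control medians were 729, 473, 576.5 and 411 bp from Hoxa to Hoxd and the treatment medians 654, 476, 618 and 495 bp. Control-only Hox peaks had a median width of 299.5 bp and shared control ones 725.5 bp. At Hoxc and Hoxd the median width over all peaks was higher in treatment. Of the control peaks shared there, 1 of 12 and 1 of 14 had a wider treatment partner, with median width ratios of 0.755 and 0.831. Bases covered went from 16.6 to 7.56 kb at Hoxc and from 13.7 to 8.89 kb at Hoxd. At Hoxa they went from 15.04 to 12.07 kb and at Hoxb from 14.4 to 11.7 kb. Covered bases over all Hox loci had a ratio of 0.672 between treatment and control, against 0.779 over all loci.

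The widest control peak, 2041 bp over the low-coordinate end of Hoxb9 at chr11:96270944-96272984, met 2 treatment peaks of 1299 and 489 bp. The widest in Hoxa, 1976 bp over the Hoxa11 start at chr6:52245022-52246997, met 2 of 670 and 1014 bp. The widest in Hoxd, 1602 bp over the Hoxd13 start, met 1 of 775 bp, and the widest in Hoxc, 1555 bp in Hoxc4, met 1 of 1080 bp. In treatment the widest were a peak of 1223 bp at Hoxa3, one of 1299 bp at Hoxb9, the 1080 bp peak at Hoxc4 and one of 1238 bp at Hoxd8. Peaks of at least 1 kb numbered 16 in control and 11 in treatment.

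At the 62 control Hox peaks shared with treatment, reads at the summit were fewer in treatment in 61. The median ratio of treatment to control coverage was 0.626 (range 0.331 to 1.16), against 0.722 over 47077 shared peaks at all loci. It was 0.666 at Hoxa, 0.660 at Hoxb, 0.626 at Hoxc and 0.536 at Hoxd. Coverage was higher in treatment at 1 of the 62 (1.61%), against 15.7% over all loci. Hoxa and Hoxb, which kept most of their peaks, thus also had fewer reads at the kept ones. Both libraries had a like lowest background per bp, with a ratio of 1.006, which is the one measure of depth used here. It sets the lowest background of a list (14.15 reads in control, 15.05 in treatment) over the width of its narrowest peak (176 and 186 bp). Background at single peaks could differ more, as at the strongest Hoxb peak above. The part of depth in the coverage ratios was not tested. Coverage at a summit comes from peaks picked for being high, and a control peak with 2 treatment peaks was set against the one it overlapped most.

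**Figure D4:**
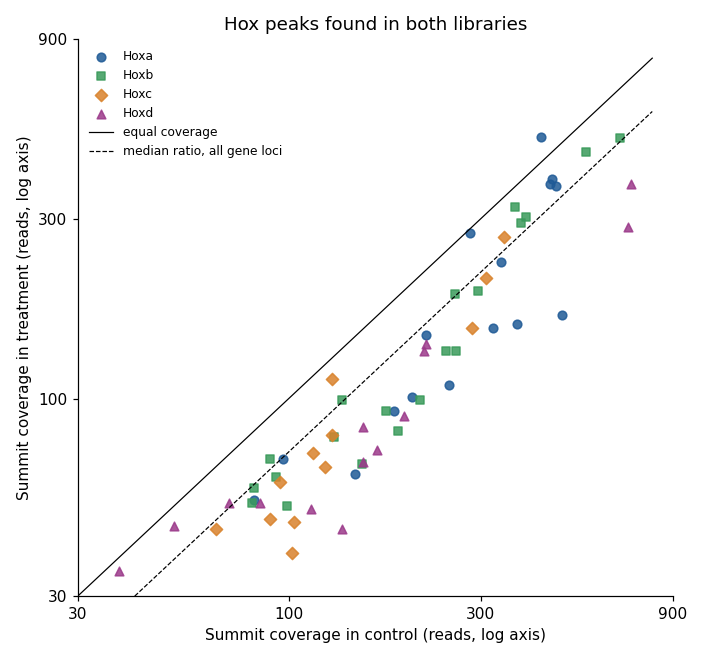
Summit coverage in reads of the 62 control Hox peaks that overlap a treatment peak, control on the x axis and treatment on the y axis, both on log axes, with symbols for the 4 clusters. The solid line marks equal coverage and the dashed line the median ratio at all gene loci (0.722); 61 points lie below the solid line.

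Proteins that act with Hox factors were described from lists of genes. Of 9 cofactor genes, 6 held fewer peaks in treatment than in control, 0 more and 3 the same number, with 48 control and 36 treatment peaks and 33.3% of control peaks control-only (21.7 to 47.5%). Over all protein-coding genes 44.7% had fewer and 27.5% of control peaks were control-only, a share inside that interval. The genes behind the 44.7% include 4419 with no peak in either library, while each cofactor gene had a peak. Meis1, a partner of Hoxa9 in progenitors, had 6 and 5, Meis2 7 and 4, Pbx3 6 and 4 and Pknox2 6 and 2. Meis3 (4 and 4) was level. All 9 had a start peak in both libraries, unlike the Hox genes.

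Of 25 upstream and chromatin regulators, 14 had fewer, 4 more and 7 as many, with 166 and 138 peaks and 24.1% control-only (18.2 to 31.1%). That interval also held the 27.5% of all loci, and the gene counts stood beside 44.7% fewer and 5.65% more over all genes. Of all genes 4419 had no peak in either library, and of the 25 regulators 1 had none. Ezh2, the Polycomb methyltransferase, had 10 and 6, its partners Eed and Suz12 3 and 1 and 4 and 2, and Jarid2 18 and 13. Kmt2a had 9 and 8, and Ctcf, which encodes the insulator protein, 8 and 5. More peaks in treatment were held by Kdm6a (6 and 8), a demethylase that removes the Polycomb mark, by Dot1l (7 and 8), by Phc1 (2 and 3) and by Cdx2 (4 and 5), which activates Hox genes in the embryo. The control-only share of the list was below that of Hoxc and Hoxd, with intervals that did not overlap the one of Hoxc.

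Genes flanking the clusters gave the surroundings, and 20 of the 22 symbols were matched. Of them 12 had fewer, 1 more and 7 as many, with 98 and 77 peaks and 24.5% control-only (17.0 to 33.9%). The interval held the 27.5% of all loci. Over all genes, those without any peak included, 44.7% had fewer and 5.65% more. Evx1, the homeobox gene next to Hoxa13, had 5 and 2 with a start peak in control only, while Evx2, next to Hoxd13, had 7 and 6. With its flanks the Evx2 locus reaches into Hoxd13, so some of its peaks are also counted as Hoxd peaks. The flanking list is thus not fully separate from the Hox set. Skap1 beside Hoxb, which encodes an adaptor of T cell receptor signalling, had 21 and 18, and Skap2 beside Hoxa 4 and 4. Calcoco1 near Hoxc had 6 and 3 and Hnrnpa1 4 and 5. Peaks just inside the limit of 10 kb were a Hoxa peak at 9.417 kb (fold 11.6), a pair of Hoxb peaks at 9.253 and 9.312 kb (10.8 and 13.9) and a Hoxd peak at 9.175 kb (1.88) in control. Just outside lay a Hoxd peak at 10.174 kb (3.66), a Hoxa peak at 12.988 kb (3.07), a Hoxb peak at 15.425 kb (7.48) and a Hoxc peak at 23.789 kb (2.71).

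Other developmental homeobox and paired genes, which like Hox genes are Polycomb targets in many adult cells, came closest to Hoxc and Hoxd. Of 39 such genes, 37 held fewer peaks in treatment than in control, 0 more and 2 the same number. They held 174 control and 94 treatment peaks, a ratio of 0.540, and 46.0% of control peaks were control-only (38.7 to 53.4%). Over all loci the ratio was 0.776 and 27.5% were control-only. Over all genes, those without any peak included, 44.7% had fewer and 5.65% more. Irx4, a heart ventricle gene, had 7 and 0, Pax6, an eye and brain gene, 9 and 4, Six2, a kidney progenitor gene, 5 and 1, and Nkx2-1, a lung and thyroid gene, 4 and 1. Their median fold in control was 4.71, close to the 4.83 of the Hox clusters. The pooled share of Hoxc and Hoxd (48.0%) lay inside their interval and that of Hoxa and Hoxb (14.3%) below it, with intervals that did not overlap, and no test was made between these sets.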

How the data were processed

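ATAC-seq peak lists of 2 libraries of mouse CD8+ T cells, 1 titled control and 1 titled treatment, were analysed. Per the submitters' processing notes the tools were cutadapt 2.5, Bowtie2 2.3, Picard 2.20 and MACS2, with the build mm10. Their settings, duplicate handling and whether reads were moved to the cut site are not given in the sources used here, and these can move the edges and number of peaks. Each list was called per library. The deposited values of each peak are the authors' score, the fold enrichment over local background (a ratio), the −log10 p-value and the −log10 q-value, whose lowest value was 2.00 in each list.

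Of 85285 control and 65098 treatment peaks, those on chromosomes 1 to 19, X and Y were used (85137 and 64910). Gene spans came from a RefSeq table of GRCm38.p6, the assembly of mm10, with 21887 protein-coding genes, and starts, promoters and microRNAs from RefSeq tables of that build. The planned start window used the span ends for 17 Hox genes whose start was not in these tables. Peaks were joined to genes with 10 kb flanks and to the other list by an overlap of at least 1 bp, in Python 3.11.15 with pandas 2.3.3 and numpy 2.4.6. Shares carry 95% Wilson intervals from counting error, which is the only error available with 1 library in each group, so no test was made. Read coverage at summits was recovered from the fold and −log10 p as a whole number, within 0.001 in −log10 p, for 159 of 159 Hox peaks, and carries exact Poisson intervals. The recovery was run on simulated peaks built from the same formulas. That checks the computation and not whether the deposited values follow those formulas. Median coverage was 220 reads in control and 189 in treatment, and the lowest 29 and 31.

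The Hox genes and the gene lists were chosen with earlier results of these data known. The limits of fold, the pooling of clusters and the paralog groups were set after the values were seen. Named with values are Hox genes whose locus number or start peak differs between libraries, the 3 with most control peaks in each cluster, the strongest and widest peaks, each treatment-only Hox peak and the 5 control-only ones of highest fold. One Hox gene and 1 cofactor gene are counted in the totals but not reported or drawn here. Names for Trac, Prac1 and Lnp found no protein-coding match. Alternatives tried were stricter q-values, lists of equal length, other flanks, other definitions of a shared peak and other start windows.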

Additional observations from a re-analysis of the deposited data

How the results depend on the processing

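Of 196 recomputed values, 174 stayed within their counting error or within 1.5 times for counts, 18 moved and 4 changed direction. The setting that changed most was a control list shortened on its own, which gave 14 of these 22 values. With the control list reduced to the length of the treatment list, the ratio of treatment to control peaks was 1.31 at Hoxb, 1.18 at Hoxc, 1.5 at Hoxd and 1.31 over the clusters, all reversed, and 1.011 over all loci. The control-only share was then 0% at Hoxa, 6.25% at Hoxb, 18.2% at Hoxc, 0% at Hoxd and 5.88% over the clusters, against 15.1% over all loci. The control median fold was 5.78 at Hoxc, 7.57 at Hoxd and 8.07 over the clusters, and the control median width 844 bp at Hoxd and 773 bp over the clusters. By construction this setting keeps the 64910 control peaks of highest −log10 p. With no flank the Hoxa control-only share was 0% (0 of 11) and the control median width over the clusters 722 bp. With summits within 150 bp as the definition of shared, the share over the clusters was 45.7%, against 32.3% over all loci. Raising −log10 q to at least 5 in both lists moved none of the 32 values recomputed, with a ratio of 0.690 and a control-only share of 35.6% over the clusters. With −log10 q of at least 10 they were 0.640 and 38.7%, the treatment median width over the clusters was 684 bp and the median fold 6.23. In the window of 250 bp before to 50 bp after the start, 9 of 22 genes had a peak in both libraries and 2 in control only, and within 2 kb 2 genes had one in control only. Each of these settings other than the summit distance and the 2 kb window tests fewer peaks or genes by construction, and the cause of the other moves was not tested. No paired analysis was possible because each group holds 1 library and no value comes from a test.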

Other observations

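At Hox peaks found in both libraries the summit often stood at another place. It lay within 50 bp of the control summit in 35 of 62 pairs (56.5%), against 80.5% of shared peaks at all loci, and at the same base in 14. By cluster the counts within 50 bp were 11 of 16 at Hoxa, 11 of 20 at Hoxb, 6 of 12 at Hoxc and 7 of 14 at Hoxd. Treatment peaks were wider than their control partner in 5 of the 62 pairs (8.06%), against 21.4% at all loci, with a median width ratio of 0.855 against 0.915. Shared control peaks had a median coverage of 185 reads at Hox loci and 367 at all loci. Neither summit place nor width was compared at like coverage, so the part of peak strength was not tested.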
